A study of Mus musculus with 4 samples.

Results

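Chromatin binding by Insm1, Neurod1 and Foxa2, transcription factors of the endocrine pancreas, was examined at the Hk1, Ldha and Slc16a1 loci. Members were the sites of the 3 deposited lists whose summit fell inside a fixed window of the mm9 mouse genome around each gene. The windows were chr10:61700000-61945000 for Hk1 (245 kb), chr7:54000000-54210000 for Ldha (210 kb) and chr3:104340000-104565000 for Slc16a1 (225 kb). They held 26 of the 60439 sites of the 3 lists, namely 10 of 17453 Insm1 sites, 8 of 14607 Neurod1 sites and 8 of 28379 Foxa2 sites. The members were selected on measured values, namely the summit positions in these lists, and the loci were chosen with results of the lists known. Site numbers, positions and scores are therefore given as descriptions and were not tested.

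The lists came from ChIP-seq, that is sequencing of DNA recovered with an antibody from sonicated chromatin, in 1 line of mouse beta cells. Per the labels, this line was started from islets of 6-week-old RIP1-Tag2 mice of mixed C57BL/6, 129/ola and CBA/J background, in which the rat insulin promoter drives the SV40 large T antigen, and was used at passages 10 to 15 in medium with 25 mmol/l glucose. The Insm1, Neurod1, Foxa2 and IgG pull-downs therefore shared 1 line, 1 medium and 1 transgene and differed in the antibody. There was 1 list for each factor, no list of the IgG control was used here, and no spread between replicates could be computed. The line proliferates, and the labels give no expression data, so the beta cell identity of the cells and the expression of the 3 genes were not checked here.

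Hk1, Ldha and Slc16a1 belong to the genes called disallowed in beta cells, housekeeping genes of most tissues that mature beta cells keep low. Hk1 encodes hexokinase 1, a high-affinity enzyme that phosphorylates glucose at the first step of glycolysis, whereas beta cells rely on the low-affinity glucokinase. Ldha encodes the A subunit of lactate dehydrogenase, which interconverts pyruvate and lactate. Slc16a1 encodes monocarboxylate transporter 1 (MCT1), which carries lactate and pyruvate across the plasma membrane. Insm1 is a zinc finger protein with repressor activity, made in endocrine cells and neurons. Neurod1, of the basic helix-loop-helix family, recognises E-boxes, and Foxa2, of the forkhead family, can bind closed chromatin.

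The sequence before each annotated start of the 3 genes is shown for reference, because E-boxes and forkhead motifs are the known targets of Neurod1 and Foxa2. The bases are the 250 before the start, 5′ to 3′ on the gene's strand, from the RefSeq promoter table of build GRCm38.p6, which matched all 3 genes. Capitals mark E-boxes (CANNTG) and forkhead motifs (TGTTTNC), searched on both strands, and no marked motif overlaps another. These positions are in another build than the sites, so the distance of a site from these starts was not computed.
Hk1, upstream start, chr10:62379909-62380158, minus strand: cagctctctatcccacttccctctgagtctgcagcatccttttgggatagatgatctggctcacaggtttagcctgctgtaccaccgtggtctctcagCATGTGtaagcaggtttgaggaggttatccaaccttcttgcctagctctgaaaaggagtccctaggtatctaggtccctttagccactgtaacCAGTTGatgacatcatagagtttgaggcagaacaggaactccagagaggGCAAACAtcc
Hk1, inner start, chr10:62340422-62340671, minus strand: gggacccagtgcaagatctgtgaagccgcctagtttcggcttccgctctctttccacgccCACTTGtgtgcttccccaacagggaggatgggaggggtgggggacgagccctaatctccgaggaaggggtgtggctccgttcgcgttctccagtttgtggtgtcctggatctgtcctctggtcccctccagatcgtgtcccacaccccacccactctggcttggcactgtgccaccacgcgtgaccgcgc
Ldha, upstream start, chr7:46845554-46845803, plus strand: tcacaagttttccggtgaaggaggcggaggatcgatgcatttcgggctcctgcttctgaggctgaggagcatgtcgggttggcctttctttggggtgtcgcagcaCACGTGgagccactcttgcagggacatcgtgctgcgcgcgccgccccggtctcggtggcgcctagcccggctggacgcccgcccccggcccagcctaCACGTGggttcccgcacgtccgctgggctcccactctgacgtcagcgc
Ldha, inner start, chr7:46846832-46847081, plus strand: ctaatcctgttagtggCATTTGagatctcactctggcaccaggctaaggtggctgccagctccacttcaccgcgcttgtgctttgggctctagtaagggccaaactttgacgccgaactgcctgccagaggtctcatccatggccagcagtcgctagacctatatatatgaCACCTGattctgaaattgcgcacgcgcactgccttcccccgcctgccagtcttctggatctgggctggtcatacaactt
Slc16a1, single start, chr3:104638414-104638663, plus strand: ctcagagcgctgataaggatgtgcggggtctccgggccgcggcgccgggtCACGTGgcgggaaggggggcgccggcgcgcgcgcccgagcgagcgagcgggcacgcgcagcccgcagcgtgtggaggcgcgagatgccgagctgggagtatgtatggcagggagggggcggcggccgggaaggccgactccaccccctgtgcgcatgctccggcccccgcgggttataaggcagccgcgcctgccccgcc

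Every one of these 5 stretches held an E-box, as did 66.2% of the 32851 promoter stretches of the table. The upstream Hk1 start and both Ldha starts had 2 E-boxes each, a number reached by 31.8% of all stretches, and the inner Hk1 start and Slc16a1 had 1. The E-box CAGATG, a form bound by Neurod1, was absent from the 5 stretches and occurred in 14.4% of all. A forkhead motif began 10 bp before the upstream Hk1 start, and TGTTTNC occurred in 17.8% of all stretches. A match describes letters only and is not a measured site.

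The 26 sites merged into 14 regions, lettered here in order of position within each locus. Sites were merged where they overlapped by at least 1 bp. Hk1 had 17 sites in 8 regions (Hk1 A to H), Ldha had 7 sites in 4 regions (Ldha A to D) and Slc16a1 had 2 sites in 2 regions (Slc16a1 A and B). All 3 factors met in 5 of the 14 regions (35.7%, 95% Wilson interval 16.3 to 61.2%), compared with 16.9% of all 39412 regions of the genome. Those 5 were 4 of the 8 Hk1 regions, 1 of the 4 Ldha regions and 0 of the 2 Slc16a1 regions. A single factor was found in 7 of the 14 regions, compared with 63.6% of all regions.

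**Figure D1:**
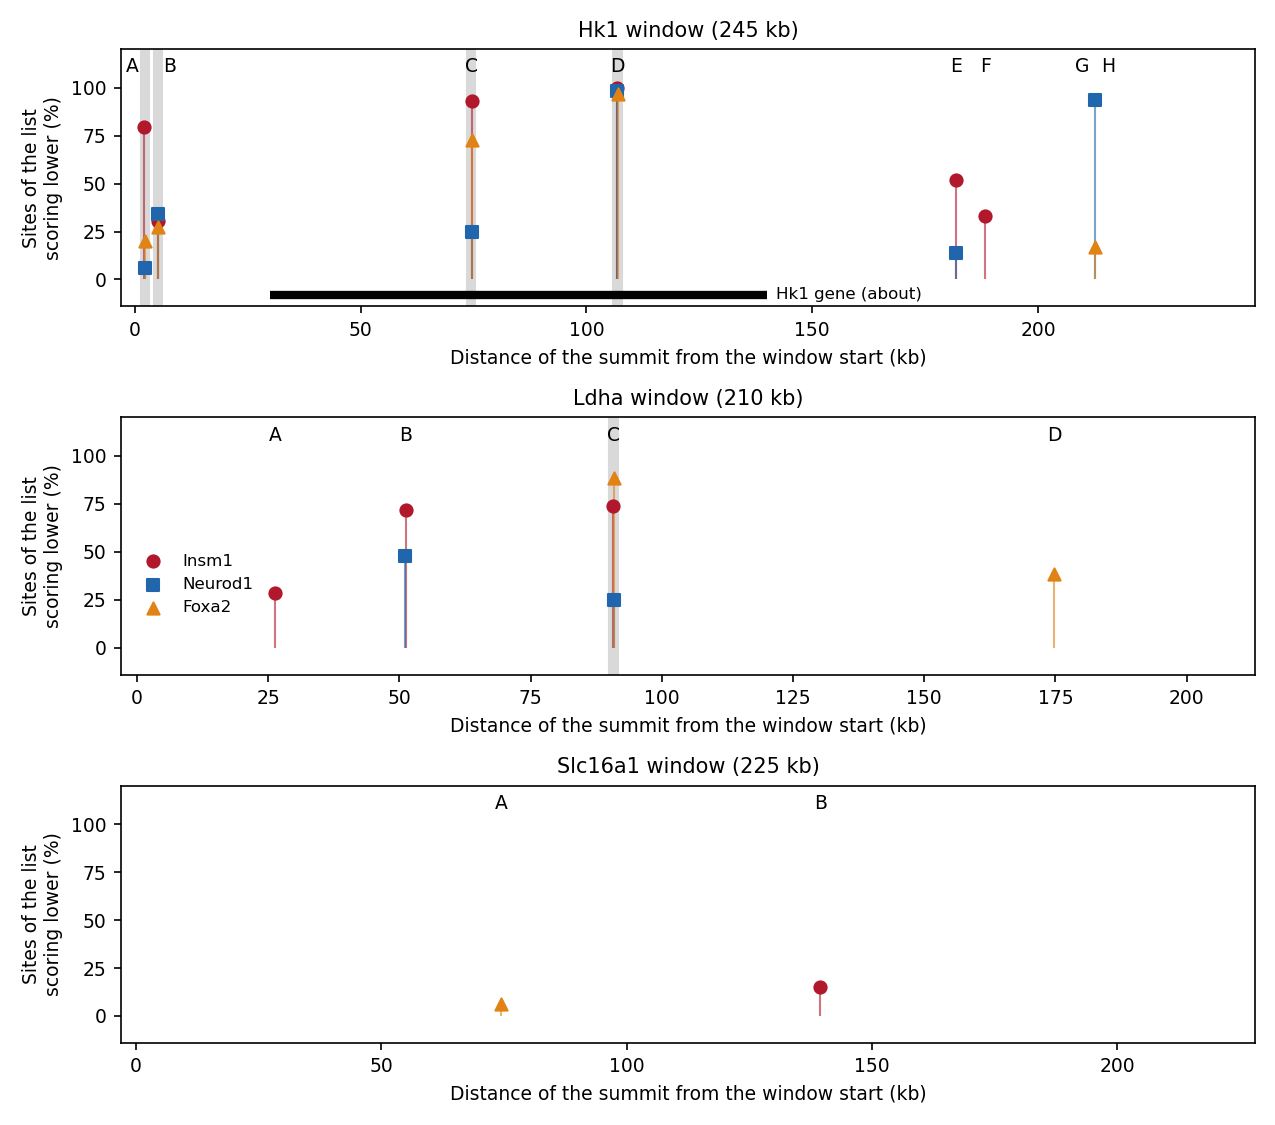
Summits in the Hk1, Ldha and Slc16a1 windows, with distance from the window start in kb on the horizontal axis and, on the vertical axis, the share of the factor's own list that scored lower, in percent. Each marker is 1 site, letters name the regions, grey bands mark the 5 regions with all 3 factors, and the black bar is the approximate Hk1 gene; the highest markers of all 3 factors stand together at Hk1 D.

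The Hk1 locus was rich in sites of Insm1 and Neurod1. Its window held 6 Insm1, 6 Neurod1 and 5 Foxa2 sites, that is 24.5, 24.5 and 20.4 sites per Mb, whereas the whole lists averaged 6.79, 5.68 and 11.03 per Mb. When the genome was divided into 10488 adjoining windows of 245 kb, 6.05% held at least 6 Insm1 sites, 4.27% at least 6 Neurod1 sites and 21.0% at least 5 Foxa2 sites, while 15.2% held at least 8 regions. At least 4 regions with all 3 factors were found in 2.48% of these windows, and 62.8% held none. The windows were laid without regard to genes, and 39.8% held no Insm1 site. Of the 8 Hk1 regions, only Hk1 C and Hk1 D lay inside the gene span. The joint regions Hk1 A and Hk1 B had summits 2.1 to 5.2 kb inside the lower window edge. A window of the same centre and 50% of the length held 2 joint regions. Of the longer 245 kb windows, 15.5% held at least 2. Windows of the shorter length were not counted, so this is not a like comparison. Widened by 100 kb on both sides, to 445 kb, the Hk1 window held 6 joint regions. Of 5768 windows of that length, 2.25% held at least as many. Within the 245 kb Hk1 window, the count of joint regions was 2 with lists of equal length. It was 1 with only the sites above the median score of each list.

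The strongest region of the Hk1 locus, Hk1 D, ranked high in all 3 lists. It lay at chr10:61806751-61807051, inside the gene, whose span is about 61.73 to 61.84 Mb. Hk1 is transcribed from the minus strand, so this position was in the upstream part of the gene span, about 33 kb from its upper end as rounded in that span. The 2 annotated Hk1 starts lie 39.5 kb apart in GRCm38.p6. If the upper end is the upstream start and the spacing is the same in mm9, the region lay between the 2 starts, nearer to the inner one. The distance from the inner start was not computed. Whether it is exonic or intronic was not determined, because no mm9 annotation was used here.

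The Insm1 site of Hk1 D had a score of 2050, which was fourth-highest in the Insm1 list (rank 4 of 17453). Of the 4 Insm1 sites that scored this high, 2 were at most 60 bp wide. The Hk1 site was 192 bp wide, above the list median of 175 bp, and ranked 2 among the 17382 Insm1 sites wider than 60 bp. The Neurod1 site of the region had a score of 331 and rank 272 of 14607, so that 98.1% of Neurod1 sites scored lower. The Foxa2 site had a score of 254 and rank 945 of 28379, with 96.6% of Foxa2 sites scoring lower. All 3 sites were thus in the top 5% of their lists, which held for 119 of the 17453 Insm1 sites (0.682%). Of these 17453, only the 6623 with both partners could qualify. Hk1 D was picked as the strongest region of the loci and the 5% limit was not fixed beforehand, so this share is a description and no test. Each site of Hk1 D was the highest-scoring site of its factor in the 3 loci.

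Hk1 C, the other region inside the gene span, combined a high Insm1 rank with a low Neurod1 rank. It lay at chr10:61774445-61774648, about 65 kb from the upper end of the gene. Its Insm1 score was 303, higher than 93.1% of the list, and its Foxa2 score was 71, higher than 72.5%. Its Neurod1 score was 56, higher than 25.0% of the Neurod1 list.

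Hk1 A and Hk1 B, which also held all 3 factors, were close neighbours beyond the lower, downstream end of the gene. They lay at chr10:61702004-61702358 and chr10:61704982-61705313, with midpoints 3.0 kb apart. Neighbouring regions with all 3 factors lay a median of 149.8 kb apart over the genome (interquartile range 41.8 to 423.4 kb), and 3.7% of neighbours were under 5 kb apart. At Hk1 A the Insm1 score was 201 (higher than 79.7% of the list), the Neurod1 score 48 (5.9%) and the Foxa2 score 27 (19.8%). At Hk1 B the scores were 107 (30.3%), 61 (34.2%) and 30 (27.5%) in the same order. Hk1 A thus rested on a strong Insm1 site with weak partner sites, and Hk1 B was weak in all 3 lists. In the RefSeq order of protein-coding genes (GRCm38.p6), Tacr2, Tspan15 and Neurog3 follow on this side of Hk1, and none of these sites was assigned to a gene.

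The remaining Hk1 regions lay above the upper end of the gene, on the side of Hkdc1, which encodes a hexokinase-like protein, Supv3l1 and Vps26a. Hk1 E, at chr10:61881694-61881882, held Insm1 (score 133, higher than 52.0% of the list) and Neurod1 (score 51, higher than 13.7%) without Foxa2. Hk1 F, at chr10:61888288-61888406, held an Insm1 site alone, with a score of 110 (33.2%). Hk1 G was a Neurod1 site at chr10:61912463-61912625 with a score of 216, higher than 93.8% of the list, and Hk1 H a Foxa2 site at chr10:61912639-61912835 with a score of 26 (17.1%). Hk1 G and H were 14 bp apart and did not overlap, with 166 bp between their summits, and they became 1 shared region when sites were widened by 500 bp. No Insm1 site accompanied this pair, although its Neurod1 site was the runner-up among the 8 Neurod1 sites of the 3 loci.

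The Ldha locus had 1 region with all 3 factors. Its window held 3 Insm1, 2 Neurod1 and 2 Foxa2 sites. Of 12236 windows of 210 kb, 21.9% held at least 3 Insm1 sites, 29.4% at least 2 Neurod1 sites, 52.7% at least 2 Foxa2 sites, 37.0% at least 4 regions and 33.6% at least 1 region with all 3 factors. These numbers depended on where the window ended. Widened by 100 kb on both sides, to 410 kb, it held 9 Insm1, 10 Neurod1 and 5 Foxa2 sites (22.0, 24.4 and 12.2 per Mb). It also held 4 regions with all 3 factors. Of 6262 windows of that length, 5.64%, 2.68% and 41.9% held at least as many Insm1, Neurod1 and Foxa2 sites. At least 4 regions with all 3 factors were found in 7.49% of them.

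Ldha C, the shared region, lay at chr7:54090712-54090951. Its Foxa2 score of 130 was higher than 88.5% of the Foxa2 list, its Insm1 score of 178 was higher than 73.7% of the Insm1 list, and its Neurod1 score of 56 was higher than 25.0% of the Neurod1 list. It was the strongest Insm1 and Foxa2 position of the locus, but not the strongest Neurod1 position. That was Ldha B, at chr7:54051052-54051229, where Neurod1 scored 71 (higher than 47.8%) and Insm1 scored 173 (72.0%) without Foxa2.

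Ldha A and Ldha D each held 1 factor. Ldha A, at chr7:54026217-54026338, was an Insm1 site with a score of 105 (28.5%), and Ldha D, at chr7:54174688-54174972, was a Foxa2 site with a score of 35 (38.2%). In the RefSeq order the genes below Ldha are Gtf2h1, Hps5 and Saa2, and those above are Ldhc, the testis form of the enzyme, Tsg101 and Uevld. The window takes in more than 1 gene, so sites of the locus are not necessarily sites of Ldha.

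The Slc16a1 locus held 2 isolated weak sites and no Neurod1 site. The Foxa2 site Slc16a1 A, at chr3:104414422-104414595, had a score of 22, higher than 6.1% of the Foxa2 list, which starts at 19. The Insm1 site Slc16a1 B, at chr3:104479414-104479588, had a score of 92, higher than 14.9% of the Insm1 list, which starts at 76. The sites were 65.0 kb apart and each was the weakest site of its factor in the 3 loci. Of 11418 windows of 225 kb, 57.8% held at least 1 Insm1 site and 74.0% at least 1 Foxa2 site. In the same windows, 48.0% held no Neurod1 site, 64.9% held no region with all 3 factors, 63.3% held at least 2 regions and 49.8% held at most 2. The lists hold only sites above the authors' thresholds, and binding below them was not detectable. The nearest protein-coding neighbours in the RefSeq order are Lrig2 below and Tafa3 above.

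**Figure D2:**
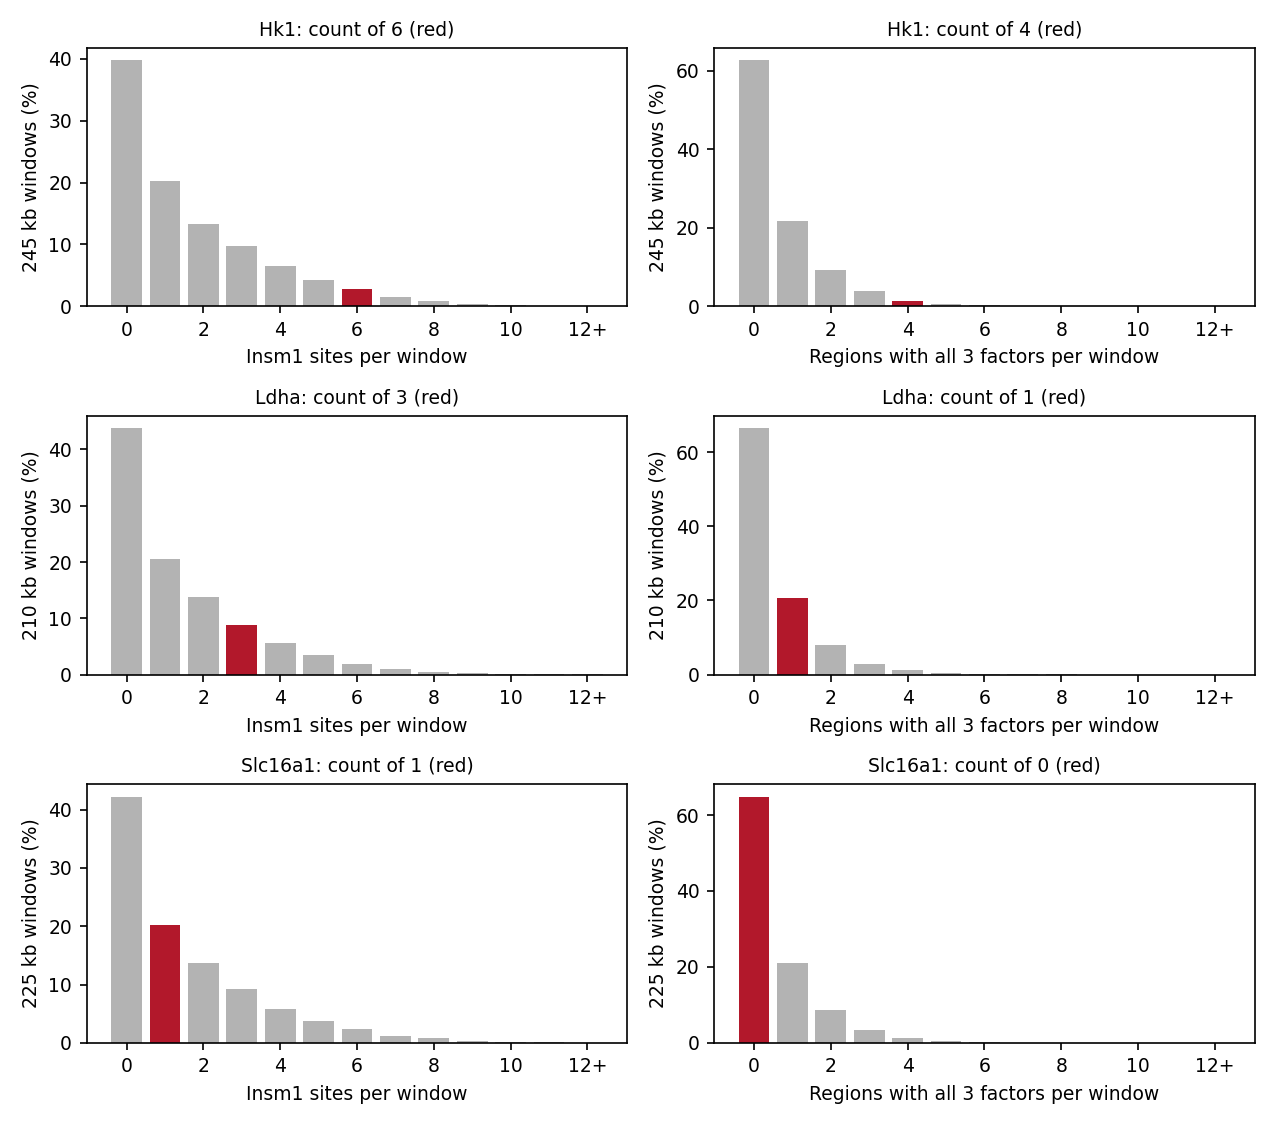
Share of all windows of the same length as each locus, in percent on the vertical axis, by the number of Insm1 sites (left) or of regions with all 3 factors (right) per window on the horizontal axis. Red bars mark the counts of the Hk1 (6 and 4), Ldha (3 and 1) and Slc16a1 (1 and 0) windows; the Hk1 bars are lower than those of Ldha and Slc16a1.

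Most Insm1 sites of the loci also held Neurod1, as did most of the whole list. Of the 10 Insm1 sites, 7 overlapped a Neurod1 site (70.0%, 95% Wilson interval 39.7 to 89.2%), compared with 55.0% of the whole list. By locus these were 5 of 6 at Hk1, 2 of 3 at Ldha and 0 of 1 at Slc16a1. Foxa2 was found at 5 of the 10 (interval 23.7 to 76.3%), compared with 56.2%, and both partners at the same 5, compared with 37.9%. Each of the 5 Insm1 sites with Foxa2 thus also held Neurod1, as did 67.5% of the 9816 Insm1 sites with Foxa2 in the whole list. Of the 8 Neurod1 sites, 7 held Insm1 (87.5%, 52.9 to 97.8%), compared with 65.7%, and 5 held Foxa2 (62.5%, 30.6 to 86.3%), compared with 55.9%. The same 5 held both partners, compared with 44.9%. With so few sites the intervals are wide, and no share was tested against that of the list.

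Most Foxa2 sites of the loci held both partners. Of the 8 Foxa2 sites, 5 held Insm1 (62.5%, 30.6 to 86.3%), compared with 34.6%, and the same 5 held Neurod1, compared with 28.8%. Both partners were present at 23.2% of all Foxa2 sites.  Of the 5 shared Foxa2 sites, 4 lay at Hk1, and the intervals cover counting error only and treat neighbouring sites as independent, so they are no test against the list.

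Insm1 stood higher in its list than Neurod1 at most regions with both. Across the 7 such regions, the Insm1 percentile was the higher in 6, compared with 55.7% of the 9593 shared sites of the genome. The median difference of percentiles, Insm1 minus Neurod1, was 38.3 points in the 3 loci and 3.4 points over all shared sites. A difference of at least 40 points, a limit chosen after the values were seen, was found in 3 of the 7 regions, compared with 12.7% of all shared sites. These were Hk1 A (73.8 points), Hk1 C (68.1 points) and Ldha C (48.7 points). Hk1 B was the exception, at -3.9 points, and at Hk1 D both factors were near the top (1.9 points).

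**Figure D3:**
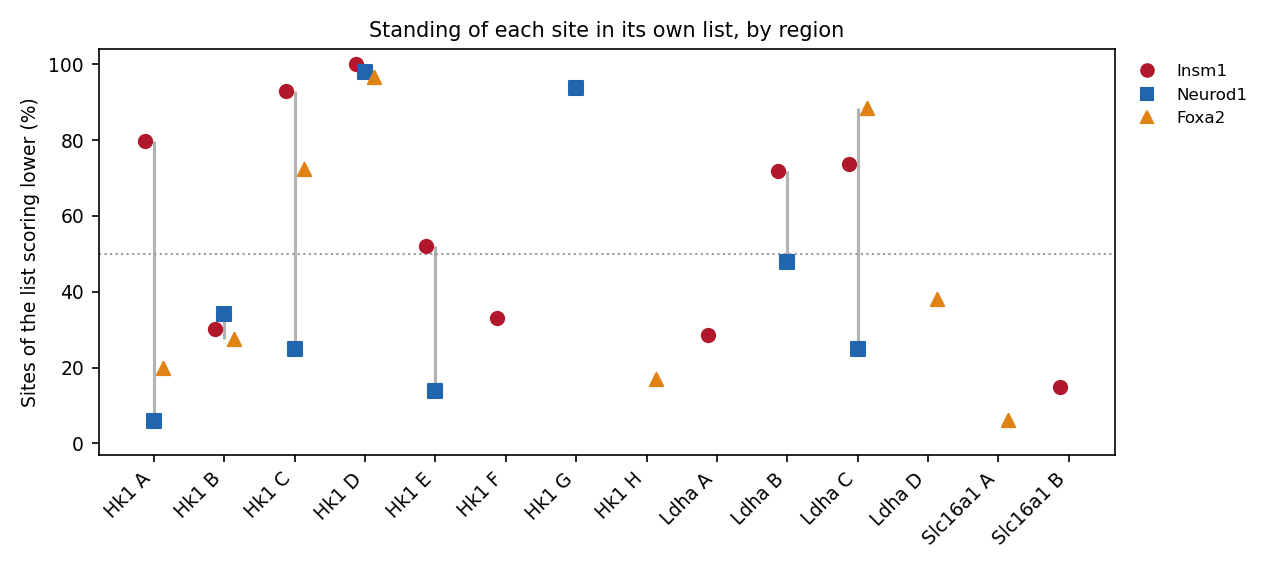
Share of the factor's own list that scored lower, in percent on the vertical axis, for every site of the 14 regions on the horizontal axis; circles are Insm1, squares Neurod1 and triangles Foxa2, grey lines join the sites of a region and the dotted line marks the middle of a list. Insm1 lies above Neurod1 in 6 of the 7 regions that hold both, and both Slc16a1 regions lie near the bottom.

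Insm1 and Foxa2 sites with both partners had the higher median percentile, as over the genome, and Neurod1 sites did not. Where both partners were present, the 5 Insm1 sites stood at a median percentile of 79.7, and the other 5 stood at 33.2, compared with 70.1 and 37.3 over the whole list. The 5 Foxa2 sites with both partners had a median percentile of 72.5 and the other 3 had 17.1, compared with 78.4 and 41.7. For Neurod1 the order was the other way, with a median of 25.0 at the 5 sites with both partners and 47.8 at the other 3, compared with 65.0 and 37.1 over the list. These Neurod1 sites were few and widely spread, from 5.9 to 98.1 with both partners and from 13.7 to 93.8 without. The difference was not tested. Of the 8 Neurod1 sites, 2 scored above the list median of 72, namely those of Hk1 D and Hk1 G. Of the 10 Insm1 sites, 6 scored above the list median of 130, and of the 8 Foxa2 sites, 3 scored above 42.

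Within shared regions the median summit distance was smallest for Insm1 and Neurod1, although Foxa2 lay nearer to Insm1 than Neurod1 did at Hk1 B and Hk1 C, and nearer to Neurod1 than Insm1 did at Hk1 A. The distance between Insm1 and Neurod1 summits ranged from 6 to 96 bp, with a median of 18 bp at 7 regions, compared with 31 bp over all shared sites. Between Insm1 and Foxa2 it ranged from 10 to 140 bp with a median of 93 bp at 5 regions, compared with 40 bp, and between Neurod1 and Foxa2 from 27 to 99 bp with a median of 66 bp, compared with 41 bp. At Hk1 D the Insm1 and Neurod1 summits were 6 bp apart and the Foxa2 summit lay 93 bp above the Insm1 summit. Ldha C had similar distances, with 18 bp between Insm1 and Neurod1 and Foxa2 115 bp above Insm1. The order of the close pair differed, with Neurod1 below Insm1 at Hk1 D and above it at Ldha C. Hk1 is on the minus strand and Ldha on the plus strand, so the Foxa2 side also differed relative to the direction of the gene. At Hk1 C all 3 summits fell within 27 bp, and at Hk1 A they were spread over 140 bp.

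The order of the summits along the chromosome was not constant. Foxa2 was the uppermost at Hk1 A, Hk1 D and Ldha C and the lowermost at Hk1 B and Hk1 C. Foxa2 sites of the loci ranged from 163 to 354 bp in width, with a median of 226 bp compared with 199 bp in the list. The Foxa2 site of Ldha C was 174 bp wide, below the list median. Insm1 and Neurod1 sites were of ordinary width, with medians of 174 and 140 bp compared with 175 and 147 bp. Wider sites leave more room for distant summits, and the part of width in these distances was not tested.

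**Figure D4:**
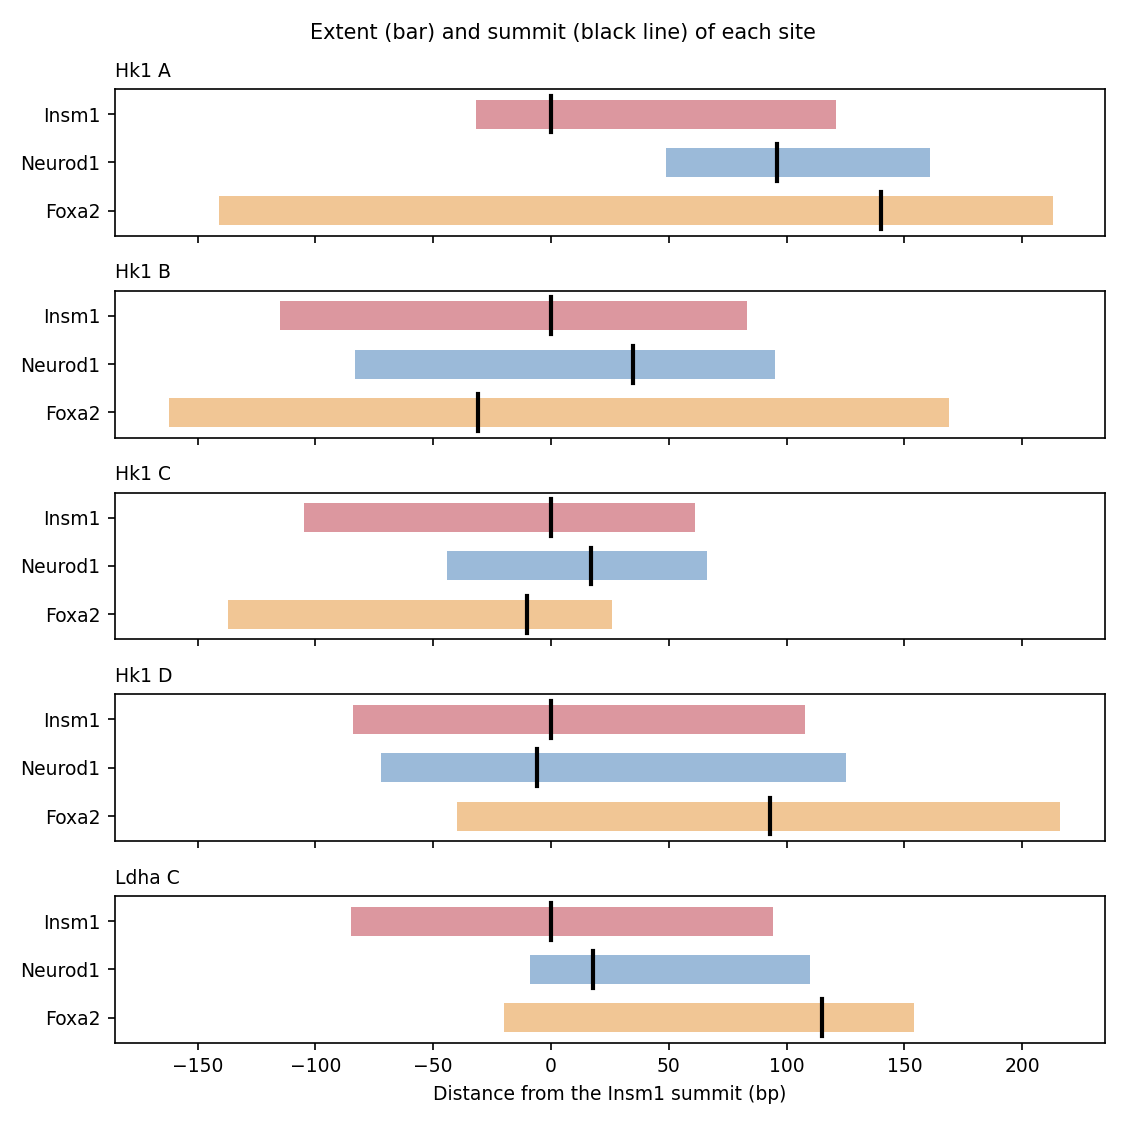
The 5 regions that hold Insm1, Neurod1 and Foxa2, with distance from the Insm1 summit in bp on the horizontal axis and 1 bar per site. Black lines are summits; Insm1 and Neurod1 summits are 6 bp apart at Hk1 D and 18 bp apart at Ldha C, where Foxa2 lies 93 and 115 bp above Insm1, and all 3 fall within 27 bp at Hk1 C.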

How the data were processed

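ChIP-seq sites of Insm1, Neurod1 and Foxa2 were analysed, with 1 sample per group. The submitters' processing notes name build mm9, Bowtie 0.12.7, MACS 1.4 and CASAVA. Settings, thresholds, control and pooling: not given in the sources used here. In all, the design text counts 6 samples, of which 4 are described here. Each deposited line holds a chromosome, start, end, an inner position (read as the summit) and a score of undefined scale. The deposited score is the authors' own and was used only to rank sites within its list. The reads behind a site are unknown. Coordinates are as deposited.

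Members were sites with the summit in the windows. The members, loci and comparisons were chosen with earlier results of these data known. Sites were shared when they overlapped by at least 1 bp, and merged into regions on the same basis. A percentile is the share of the list scoring lower. Adjoining windows ran from the first to the last site of each chromosome. Shares carry 95% Wilson intervals for counting error, and no test against the whole lists was made. Every region with all 3 factors and the best site of each factor in each locus were named by rule, and the other sites were added so that all members are listed. No mm9 annotation was used, so other disallowed genes were not counted, and no mm9 sequence of the sites is printed. Neighbouring genes are named from the RefSeq table of GRCm38.p6, in which the last gene ends before the last site on 10 chromosomes. The code that counts overlaps was checked on lists with planted overlaps. Versions were matplotlib 3.10.9, pandas 2.3.3, scipy 1.17.1, numpy 2.4.6 and Python 3.11.15. Alternatives were other window lengths, stricter lists, other sharing rules and ranks among sites of similar width.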

Additional observations from a re-analysis of the deposited data

How the results depend on the processing

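With 1 list per factor, no replicate could be left out, and no paired analysis was possible because each factor has 1 sample. Of 124 alternative values of 29 results, 42 moved by over 1.5 times for counts, or out of the Wilson interval for percentiles, and 82 did not. Of those 82, 26 were counts of 0 in both settings at Slc16a1, and 16 others were counts without sites of at most 60 bp, which could not change because the narrowest site of the loci is 77 bp wide. Among the other 40, the Neurod1 counts of Hk1 and Ldha with lists of equal length could not change either. That length is the whole Neurod1 list. Percentiles among sites wider than 60 bp could change little, because only 71 Insm1, 424 Neurod1 and 271 Foxa2 sites are left out. The rest of the 40 bear on stability. Windows of 50% of the length held 3 Insm1, 3 Neurod1 and 2 Foxa2 sites and 2 regions with all 3 factors at Hk1, and 1 site of each factor at Ldha. Windows wider by 100 kb on both sides held 11 Insm1 and 8 Foxa2 sites at Hk1, 9 Insm1, 10 Neurod1 and 5 Foxa2 sites and 4 regions with all 3 factors at Ldha, and 2 Insm1 and 2 Foxa2 sites at Slc16a1. Counts change with the length of the window, so a moved count in these windows is not in itself a change in density. For Insm1, the wider windows held 24.7 sites per Mb at Hk1, 22.0 at Ldha and 4.7 at Slc16a1. The main windows held 24.5, 14.3 and 4.4. At Ldha the flanks were denser than the window, with 4 Neurod1 sites in each. Region counts in shorter and wider windows were added after seeing the data. With only the sites above the median score of each list, Hk1 held 2 Neurod1 and 2 Foxa2 sites, Insm1 was shared with Neurod1 at 1 site and with Foxa2 at 2, Neurod1 with Foxa2 at 1, and 1 region, Hk1 D, held all 3 factors. Ldha then held 0 Neurod1 sites and 1 Foxa2 site, with 0 Insm1 sites shared with Neurod1, 0 Neurod1 sites shared with Foxa2 and 0 regions with all 3, and Slc16a1 held 0 Insm1 and 0 Foxa2 sites. With each list limited to the 14607 best-scoring sites, Hk1 held 2 Foxa2 sites, both shared with Insm1 and Neurod1, and so 2 regions with all 3 factors (Insm1 with Foxa2 at 2, Neurod1 with Foxa2 at 2), Ldha held 1 Foxa2 site, and Slc16a1 held 0 Insm1 and 0 Foxa2 sites. These settings hold fewer sites by construction. With summits within 100 bp as the sharing rule, 0 Ldha Insm1 sites were shared with Foxa2. Among sites of the same tercile of width, the best Neurod1 site of Hk1 stood above 96.8%, the best Insm1, Neurod1 and Foxa2 sites of Ldha above 70.2%, 43.9% and 95.1%, and the best Insm1 and Foxa2 sites of Slc16a1 above 12.5% and 9.3%. The cause was not tested.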

Other observations

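The surroundings of the windows differed as well. Within 100 kb below the Hk1 window lay 3 regions, of which 2 held all 3 factors, and within 100 kb above it lay 3 regions, none with all 3. The Ldha window was bordered by 4 regions below (2 with all 3 factors) and 5 above (1 with all 3), with 4 Neurod1 sites on each side, more than the 2 inside. Around Slc16a1 there were 2 regions below, none with all 3 factors, and 0 regions above, and no Neurod1 site on either side.

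The sites nearest the window edges were as follows. At the Hk1 window, the Insm1 site of Hk1 A (score 201) lay 2.14 kb inside the lower edge, and the next site outside was a Foxa2 site (score 97) 18.19 kb beyond. At its upper edge Hk1 H (score 26) lay 32.28 kb inside and a Foxa2 site (score 92) 40.38 kb outside. At Ldha, Ldha A (score 105) lay 26.27 kb inside the lower edge and a Neurod1 site (score 72) 33.96 kb outside. At its upper edge Ldha D (score 35) lay 35.24 kb inside, and an Insm1 site (score 195, higher than 78.4% of the list) lay 3.88 kb outside. At Slc16a1, the site just inside the lower edge (score 22) was 74.46 kb from it and the next Foxa2 site outside (score 27) 65.61 kb. At the upper edge the Insm1 site inside (score 92) was 85.5 kb from it and the next Insm1 site outside (score 105) 102.4 kb.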
